A study of Danio rerio with 18 samples.

Results

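The 10 genes described here encode fibroblast growth factor (FGF) ligands of the zebrafish, Danio rerio: fgf3, fgf8a, fgf8b, fgf10a, fgf10b, fgf17, fgf18a, fgf20a, fgf22 and fgf24. They were found by symbol in the array's probe-to-gene table, in which 20806 of 75212 probe sets carry a single gene symbol and 19260 genes are named. Each of the 10 genes had 1 probe set, and none of these shared its values with another probe set. RNA of lateral line primordium cells was measured on 18 Affymetrix arrays in 3 groups of 6. The FGF overexpression group came from embryos with 4 transgenes, cldnb:lynGFP, cxcr4b:nls-tdTomato, cxcr4b:LexPR and lexOP:Fgf3-GFP, kept in 10 µM RU486 with 0.1% DMSO. The SU5402 group had of these only the reporters cldnb:lynGFP and cxcr4b:nls-tdTomato, and was given 1 µM SU5402, which inhibits FGF receptor 1, on top of 0.1% DMSO and 10 µM RU486. The control group had the same pair of reporters and was given the same RU486 and DMSO without SU5402. RU486 switches on the LexPR driver, which then turns on the lexOP promoter, and embryos of all 3 groups received it. The driver stands under the cxcr4b promoter, which is also active outside the primordium, and the 2 added transgenes cannot be told apart from Fgf3 itself. Embryos were younger than 3 days. The sources used here do not give the exact stage, the length of treatment, the way cells were isolated or how many embryos went into an array.

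FGF ligands are secreted proteins that bind FGF receptors together with heparan sulfate and activate the RAS-ERK pathway, whose outputs include the ETS factor gene etv4 and the feedback inhibitor genes spry4 and dusp6. The lateral line primordium is an epithelial cluster that travels down the trunk and deposits sensory organs. In it, Wnt signalling is active in the leading cells, where fgf3 and fgf10a are expressed, and the FGF proteins signal to trailing cells that form rosettes. The genes fgf10a, fgf10b and fgf22 belong to the Fgf7 subfamily of ligands, fgf8a, fgf8b, fgf17, fgf18a and fgf24 to the Fgf8 subfamily, and fgf20a to the Fgf9 subfamily. The comparisons ask how the RNA of the ligands themselves differs when receptor signalling is reduced or a ligand is supplied from a transgene.

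Values are deposited log2 signals of probe sets, and a difference of 1 is a doubling. Array medians lay between 5.89 and 5.99, and correlations across probe sets between arrays of a group between 0.967 and 0.983. All 13 measured primordium markers, among them cldnb and cxcr4b, had means above the median of all probe sets in every group. The list averaged 10.24 to 10.40 on FGF overexpression arrays, 10.41 to 10.52 on SU5402 arrays and 10.16 to 10.60 on control arrays. Of its genes, lef1, ackr3b and prox1a themselves changed in every comparison by the test described below. The log2 change of lef1 was 1.52 under SU5402 and -1.39 under FGF overexpression. For ackr3b it was -1.72 and -0.84, and for prox1a 0.62 and 0.33. The mean of the list is thus not a measure of primordium content alone. Other cell types were present too. All 18 skeletal muscle markers and all 15 measured skin and periderm markers were above the median in every group. The muscle list averaged 10.41 to 11.11 on FGF overexpression arrays, 10.26 to 11.17 on SU5402 arrays and 10.45 to 11.21 on control arrays. The skin list averaged 9.60 to 9.88 on FGF overexpression arrays, 8.75 to 9.21 on SU5402 arrays and 9.26 to 9.97 on control arrays. The skin list was lower on every SU5402 array than on any array of the other groups. In these bulk samples, fewer cells of a type and less RNA per cell cannot be told apart.

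**Figure D1:**
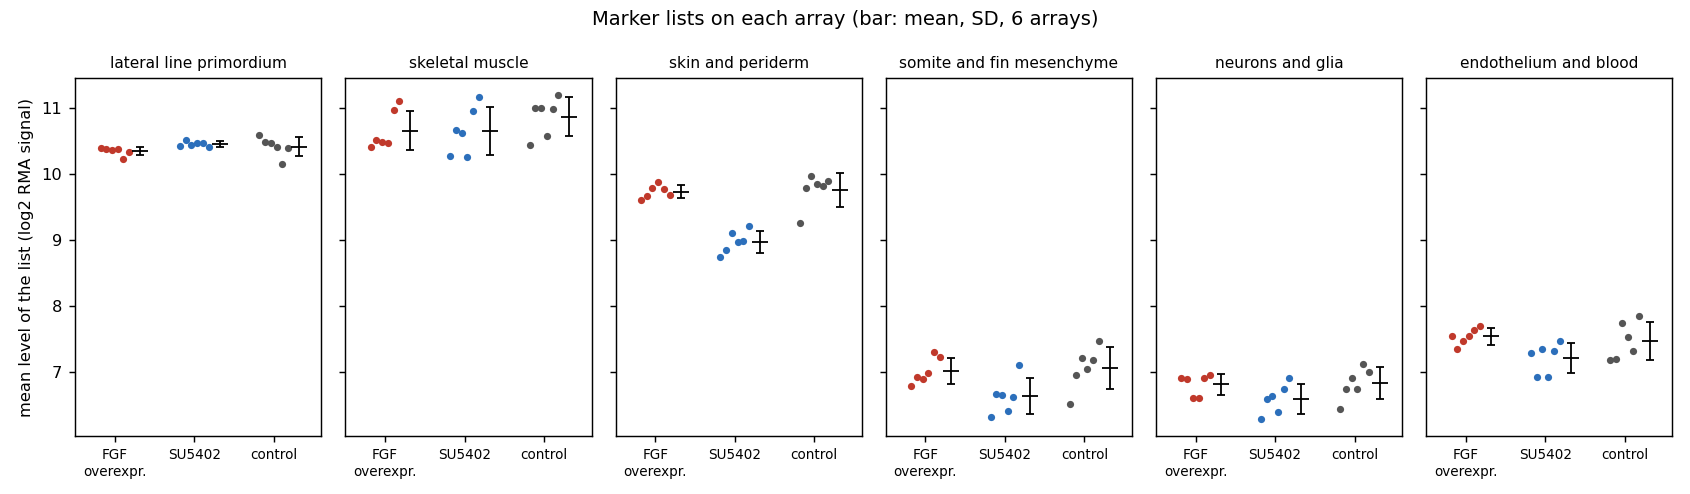
Mean log2 level of each marker list on each array, with arrays of FGF overexpression, SU5402 and control embryos from left to right and the mean and SD of 6 arrays beside the points. The skin and periderm list lies between 8.75 and 9.21 on SU5402 arrays, below all other arrays. The primordium list spans 10.16 to 10.60 over all 18 arrays and includes lef1, ackr3b and prox1a, which changed under both treatments.

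Under SU5402 5 of the 10 ligand genes rose and none fell, namely fgf3, fgf10a, fgf10b, fgf17 and fgf20a. The call of fgf20a was lost in 9 of 12 alternative fits. In every group, means of fgf17 and fgf20a lay at or below the median of all values of that group. Under FGF overexpression fgf3, which the transgene encodes, rose, while fgf10a and fgf10b fell and the other 7 did not pass the test. The test was limma's moderated test with Benjamini-Hochberg adjustment over 75212 probe sets. At an unadjusted limma p under 0.05 the same 5 genes were higher under SU5402 and 1 was lower, fgf24. At the same unadjusted level 2 ligand genes were higher under FGF overexpression, fgf3 and fgf24, and 3 were lower, fgf10a, fgf10b and fgf17. The share of all probe sets at an unadjusted p under 0.05 was not computed. Unadjusted counts, here and for the lists below, thus have no background, and the shares that follow are after adjustment. In SU5402 against control 9.41% of all probe sets passed, 4.69% higher and 4.72% lower. Of named genes 14.7% passed, 6.57% higher and 8.13% lower. In FGF overexpression against control 4.06% of probe sets passed, 2.27% higher and 1.79% lower. Of named genes 5.89% passed, 3.41% higher and 2.48% lower. The arrays of both groups did not overlap for 4 ligand genes in SU5402 against control, against 5.74% of all probe sets. In FGF overexpression against control they did not overlap for 3, fgf3, fgf10a and fgf10b, against 3.43%. The median log2 change of the 10 genes was 0.38 under SU5402, where that of all probe sets was 0.04, and 0.08 under FGF overexpression, where that of all probe sets was 0.00. The median size of change, sign set aside, was 0.51 under SU5402 and 0.29 under FGF overexpression, against 0.14 and 0.13 over all probe sets. The counts and medians under FGF overexpression include fgf3, which the transgene encodes, so they are not those of native RNA alone.

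Set against each other directly, FGF overexpression and SU5402 arrays differed in 5 of the 10 genes, of which fgf3 and fgf24 were higher with FGF overexpression and fgf10a, fgf10b and fgf17 lower. In that comparison 16.9% of all probe sets passed, 7.88% higher and 9.04% lower, and 24.4% of named genes. The majority of calls in that comparison turned with the scaling, since 46.57% of the called probe sets were higher as deposited, 56.42% with array medians made equal and 52.28% after quantile normalization. In SU5402 against control 49.84% of the called probe sets were higher as deposited, 40.74% with array medians made equal and 43.99% after quantile normalization. No called change of a ligand gene turned its sign under either scaling. The arrays of both groups did not overlap for the same 5 genes, the transgene's fgf3 included, against 10.3% of all probe sets. The 3 comparisons share arrays pairwise and are not independent.

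**Figure D2:**
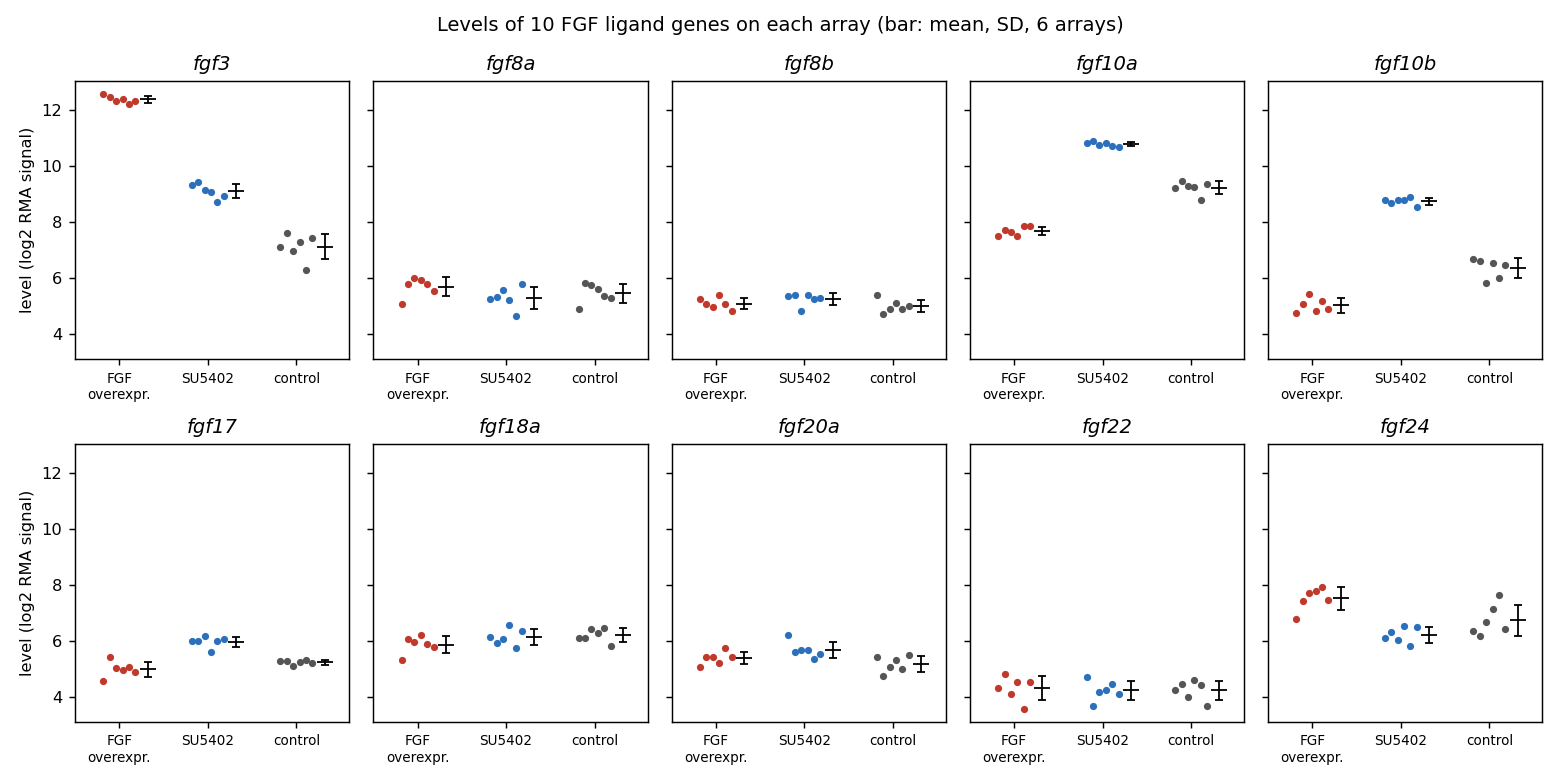
Log2 level of each of the 10 ligand genes on each array, with FGF overexpression, SU5402 and control arrays from left to right and the mean and SD of 6 arrays beside the points. Arrays of the 3 groups form separate bands for fgf3, fgf10a and fgf10b, with fgf3 highest under FGF overexpression (12.22 to 12.59) and fgf10a and fgf10b lowest there (7.51 to 7.86 and 4.76 to 5.43).

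The gene fgf3 encodes a ligand that is needed, together with fgf10a, for rosette formation in the primordium. Its lowest, median and highest values were 12.22, 12.36 and 12.59 on FGF overexpression arrays, 8.71, 9.12 and 9.43 on SU5402 arrays and 6.30, 7.21 and 7.60 on control arrays. Every SU5402 array was above every control array, with a gap of 1.11, and every FGF overexpression array was above every SU5402 array, with a gap of 2.79. The spread was widest among control arrays, with an SD of 0.13 under FGF overexpression, 0.27 under SU5402 and 0.46 in control. Control replicate 5 held the lowest control value, 6.30, and also the lowest mean of the primordium marker list on any array, 10.16. The rise under FGF overexpression was the largest change in size of all 75212 probe sets (log2 change 5.26, SE 0.17, limma adjusted p = 1.64e-12). RNA of the transgene and of the native gene cannot be told apart in that value. SU5402 embryos carried no Fgf3 transgene, and there the rise was 3.97-fold (log2 change 1.99, 95% interval 1.62 to 2.35, limma adjusted p = 2.42e-07). On the same SU5402 arrays 6 of the 15 skin and periderm markers fell and none rose in the limma test, or 13 and 0 at an unadjusted p under 0.05. Of the other marker lists there, 4 of 15 somite and fin mesenchyme markers and 2 of 11 neuron and glia markers fell and none rose, or 6 and 3 lower and 0 higher at an unadjusted p under 0.05. Among 12 endothelium and blood markers 2 rose and 4 fell, and among 13 primordium markers 2 rose and 2 fell. Of all named genes, 6.57% rose and 8.13% fell there in the limma test. The neuron and glia list averaged 6.60 to 6.96 on FGF overexpression arrays, 6.28 to 6.90 on SU5402 arrays and 6.44 to 7.12 on control arrays. Between arrays of the same replicate number, the SU5402 mean of that list was below control for every number. The endothelium and blood list averaged 7.34 to 7.70 on FGF overexpression arrays, 6.92 to 7.46 on SU5402 arrays and 7.18 to 7.86 on control arrays. The part of these cell types in the rise of fgf3 and of the other 4 ligand genes was not tested.

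The next protein-coding gene after fgf3 in the RefSeq table of assembly GRCz12tu is fgf4, also an FGF ligand gene, followed by fgf19, which encodes a ligand too. The level of fgf4 ranged from 4.93 to 5.47 on FGF overexpression arrays, from 5.28 to 6.23 on SU5402 arrays and from 4.91 to 5.44 on control arrays. It rose under SU5402 (log2 change 0.58, SE 0.14, limma adjusted p = 0.011) with overlapping arrays, and under FGF overexpression its log2 change was -0.04 (adjusted p = 0.921). The level of fgf19 passed in neither comparison, with a log2 change of 0.03 under FGF overexpression (adjusted p = 0.942) and 0.09 under SU5402 (adjusted p = 0.766).

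The zebrafish has a pair of Fgf10 genes. One of them, fgf10a, is known for its role in pectoral fin outgrowth and acts in the primordium with fgf3. The lowest, median and highest values of fgf10a were 7.51, 7.68 and 7.86 on FGF overexpression arrays, 10.68, 10.80 and 10.90 on SU5402 arrays and 8.80, 9.26 and 9.48 on control arrays. No array of one group overlapped another group, and the order of the groups was SU5402, control, FGF overexpression from high to low. The gene fell 2.93-fold under FGF overexpression (log2 change -1.55, 95% interval -1.76 to -1.34, limma adjusted p = 1.66e-08). It rose 2.95-fold under SU5402 (log2 change 1.56, 95% interval 1.35 to 1.77, limma adjusted p = 5.63e-09). Between the treatments, FGF overexpression arrays were 8.62-fold below SU5402 arrays (log2 change -3.11, SE 0.10, limma adjusted p = 2.01e-13). The SU5402 arrays varied least, with an SD of 0.16 under FGF overexpression, 0.08 under SU5402 and 0.23 in control.

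The second copy, fgf10b, kept the same order of groups at other levels. Its lowest, median and highest values were 4.76, 4.97 and 5.43 on FGF overexpression arrays, 8.54, 8.78 and 8.88 on SU5402 arrays and 5.81, 6.49 and 6.66 on control arrays. Again no array of one group overlapped another group, and the gap between FGF overexpression and control was the smallest, at 0.38. The rise under SU5402 was 5.26-fold (log2 change 2.40, 95% interval 2.09 to 2.70, limma adjusted p = 2.47e-09), rank 65 by size among all probe sets. The fall under FGF overexpression was at least 2.51-fold (log2 change -1.33, 95% interval -1.64 to -1.02, limma adjusted p = 1.14e-05). The words at least mark a fold whose lower group had a mean no higher than the median of all its values, since an array can compress changes at low signal. That median was 5.92 for FGF overexpression. The compression was not measured. The words leave out sampling error, so the interval or SE still allows a smaller fold than the one printed. The difference between the treatments was at least 13.2-fold (log2 change -3.73, SE 0.15, limma adjusted p = 2.19e-12).

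The copies differed in how far they moved. The log2 change under SU5402 was 0.84 larger for fgf10b than for fgf10a, by an exact two-sided permutation test over the 12 arrays (p = 0.00216, the smallest that 6 against 6 arrays can give, and adjusted p = 0.026 over 12 tests of 4 pairs of copies). Under FGF overexpression the log2 change of fgf10b was 0.22 above that of fgf10a, a difference that did not pass (exact permutation p = 0.238, adjusted p = 0.571). The mean of fgf10b was below the median of all values there and its fall can be compressed, so the test cannot show that the copies fell alike. Between the treatments, the log2 change of fgf10b minus that of fgf10a was -0.62 and passed (exact permutation p = 0.00433, adjusted p = 0.026). No test passed for fgf8b against fgf8a, fgf18b against fgf18a or fgf20b against fgf20a, with adjusted p of 0.251 or more over the same 12 exact permutation tests. An array signal is not linear over its whole range, so the difference between copies is one of measured log2 signal.

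**Figure D3:**
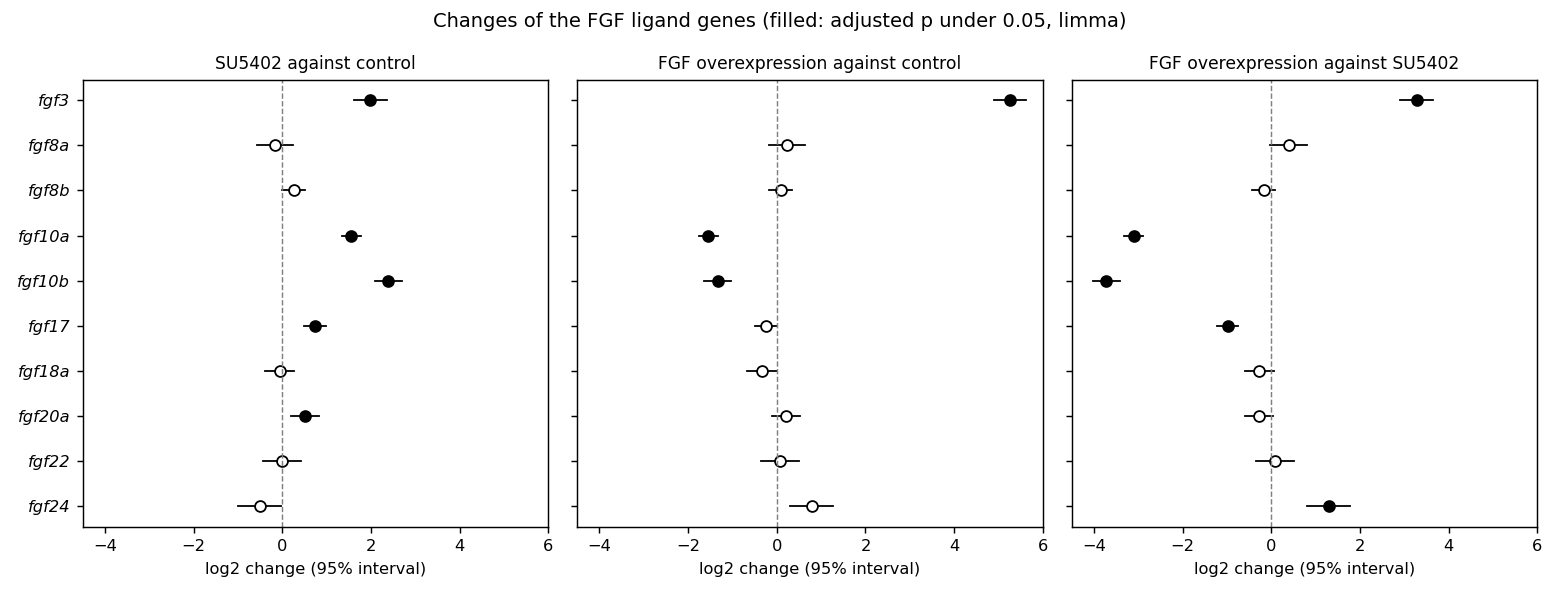
Log2 change of each ligand gene with its 95% interval in the 3 comparisons, with filled points where the limma adjusted p is under 0.05. The points of fgf10a and fgf10b lie right of 0 in SU5402 against control (1.56 and 2.40) and left of it in FGF overexpression against control (-1.55 and -1.33), while fgf3 lies right of 0 in both.

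The ligand gene fgf17, whose mouse counterpart is expressed at the boundary of midbrain and hindbrain, was higher in SU5402 arrays. Its lowest, median and highest values were 4.56, 4.98 and 5.40 on FGF overexpression arrays, 5.61, 5.98 and 6.15 on SU5402 arrays and 5.08, 5.24 and 5.29 on control arrays. All 6 SU5402 arrays were above all control arrays, by a gap of 0.32, and above all FGF overexpression arrays, by a gap of 0.21. The log2 change was 0.74 under SU5402 (SE 0.11, 95% interval 0.50 to 0.98, limma adjusted p = 0.000207). Under FGF overexpression it was -0.25 with 5 of 6 arrays below the control mean, and it did not pass (95% interval -0.48 to -0.01, adjusted p = 0.298). FGF overexpression lay below SU5402 by a log2 change of -0.98 (SE 0.11, limma adjusted p = 4.20e-06). The gene's mean lay at or below the median of all values of the same group in every group, so no fold is given. Under SU5402 it did so only narrowly, at 5.958 against 5.96.

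The gene fgf20a is required for fin regeneration in zebrafish. It had lowest, median and highest values of 5.06, 5.42 and 5.72 on FGF overexpression arrays, 5.33, 5.63 and 6.20 on SU5402 arrays and 4.73, 5.19 and 5.47 on control arrays. The groups overlapped, although 5 of 6 SU5402 arrays were above the highest control array. The log2 change under SU5402 was 0.50 (SE 0.15, 95% interval 0.19 to 0.82) and just passed (limma adjusted p = 0.042). The call was lost in 9 of 12 alternative fits, with adjusted p between 0.0321 and 0.152 over all of them. Under FGF overexpression the log2 change was 0.22 and did not pass (95% interval -0.10 to 0.53, adjusted p = 0.534). The gene's mean lay below the median of all values in every group.

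The gene fgf24, required for pectoral fin initiation in zebrafish, was higher with FGF overexpression than with SU5402. Its lowest, median and highest values were 6.78, 7.58 and 7.91 on FGF overexpression arrays, 5.82, 6.20 and 6.52 on SU5402 arrays and 6.16, 6.53 and 7.62 on control arrays. Control arrays overlapped both treatments, whereas every FGF overexpression array was above every SU5402 array, by a gap of 0.26. FGF overexpression was 2.46-fold above SU5402 (log2 change 1.30, 95% interval 0.81 to 1.78, limma adjusted p = 0.000477). Against control, the log2 change was 0.78 under FGF overexpression with all 6 arrays above the control mean (SE 0.23, 95% interval 0.30 to 1.27, adjusted p = 0.068) and -0.51 under SU5402 with all 6 below it (95% interval -0.998 to -0.03, adjusted p = 0.206). Neither passed as designed, and the first passed in 4 of 13 alternative fits, one of them without replicate 5 of each group (log2 change 0.88, limma adjusted p = 0.0242). In that same fit the change under SU5402 shrank to -0.26 (limma adjusted p = 0.574). The control SD of fgf24 was 0.55, the widest of the 10 genes in any group, and control replicate 5 held the highest control value.

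Markers of other cell types also differed between the groups that fgf24 separates. In FGF overexpression against SU5402, 9 of 15 skin and periderm markers and 3 of 15 somite and fin mesenchyme markers were higher, and 1 of the mesenchyme markers was lower. Of all named genes, 12.5% were higher and 11.9% lower there. The median log2 change was 0.62 for the skin list and 0.05 for the mesenchyme list. The fin fold gene and2 ranged from 10.76 to 11.36 on FGF overexpression arrays, from 8.03 to 9.23 on SU5402 arrays and from 8.96 to 10.49 on control arrays. Its log2 change of 2.43 was the largest of the mesenchyme list, while the lower marker, col5a1, was at -0.60 (limma adjusted p = 0.0311). The mean of the mesenchyme list overlapped between groups, at 6.79 to 7.30 on FGF overexpression arrays, 6.31 to 7.10 on SU5402 arrays and 6.51 to 7.47 on control arrays. Between arrays of the same replicate number, however, the SU5402 mean was below those of FGF overexpression and control for every number. FGF overexpression lay above control for some numbers and below it for others. The part of these cells in the level of fgf24 was not tested.

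The remaining ligand genes, fgf8a, fgf8b, fgf18a and fgf22, passed in no comparison, and their groups overlapped throughout. The gene fgf8a, mutated in the acerebellar line and needed for the ear and the midbrain-hindbrain boundary, ranged from 5.07 to 6.01 on FGF overexpression arrays, from 4.63 to 5.79 on SU5402 arrays and from 4.90 to 5.83 on control arrays. Its log2 change was 0.23 under FGF overexpression (95% interval -0.18 to 0.64, adjusted p = 0.628) and -0.16 under SU5402 (95% interval -0.57 to 0.25, adjusted p = 0.718). Its copy fgf8b, which older tables list as fgf17 or fgf17a, ranged from 4.80 to 5.38 on FGF overexpression arrays, from 4.83 to 5.40 on SU5402 arrays and from 4.72 to 5.38 on control arrays. Its log2 change was 0.09 under FGF overexpression (95% interval -0.17 to 0.35) and 0.26 under SU5402 (95% interval -0.00 to 0.51), with adjusted p of 0.790 and 0.249.

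The gene fgf18a, a ligand of the same subfamily as fgf8a, ranged from 5.29 to 6.20 on FGF overexpression arrays, from 5.74 to 6.55 on SU5402 arrays and from 5.79 to 6.45 on control arrays. Its log2 change was -0.33 under FGF overexpression (95% interval -0.67 to 0.00, adjusted p = 0.316) and -0.06 under SU5402 (95% interval -0.40 to 0.27, adjusted p = 0.882). The gene fgf22, whose mouse counterpart organises synapses, ranged from 3.55 to 4.79 on FGF overexpression arrays, from 3.67 to 4.69 on SU5402 arrays and from 3.67 to 4.59 on control arrays. Its log2 change was 0.08 under FGF overexpression (95% interval -0.35 to 0.50, adjusted p = 0.904) and 0.00 under SU5402 (95% interval -0.43 to 0.42, adjusted p = 0.996). The intervals of these 4 genes still allow log2 changes against control as low as -0.67 and as high as 0.64. The means of fgf8a, fgf8b and fgf22 were below the median of all values in every group, where a change can be compressed.

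For each ligand gene that passed against control, the named genes with the nearest pattern were sought over all 18 arrays, by the root mean square difference of log2 levels after each gene was centred on its own control mean. The search covered 16936 named genes. Genes were picked for likeness over these same arrays, so a shared order or size of change follows from the selection. Nearest to fgf10a were fam20cb, a secretory pathway kinase family gene, at 0.19, shisa3, of a family known in the frog to restrain Wnt and FGF receptors, at 0.20, and lef1, whose protein turns on Wnt target genes, at 0.22. Of these, lef1 had levels of 8.29 to 8.66 on FGF overexpression arrays, 11.22 to 11.62 on SU5402 arrays and 9.82 to 10.18 on control arrays, and its groups did not overlap either. Its log2 changes of -1.39 under FGF overexpression and 1.52 under SU5402 stood beside -1.55 and 1.56 for fgf10a.

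Nearest to fgf10b were epha7, an ephrin receptor gene, at 0.34, the cholecystokinin receptor gene cckbra at 0.35 and hsd11b2, whose enzyme inactivates cortisol, at 0.35. Picked for that likeness, they rose more under SU5402 than they fell under FGF overexpression, as did fgf10b. Their log2 changes were -0.88, -0.96 and -0.90 under FGF overexpression and 2.44, 2.19 and 2.30 under SU5402. No named gene was as near to fgf3. The search included the FGF overexpression arrays, where RNA of the transgene and of native fgf3 cannot be told apart. The change of fgf3 there was the largest of all probe sets. Its distances and nearest genes thus do not describe native fgf3 RNA alone. The nearest were sost, a Wnt antagonist gene, at 1.63, hspa8b, a chaperone gene, at 1.72 and oc90, an otolith matrix gene, at 1.86. These rose under FGF overexpression by log2 changes of 4.45, 3.42 and 3.26, but had values of -0.64, -0.17 and -0.44 under SU5402, where fgf3 was at 1.99. For fgf17 the nearest were cmss1, gtdc1 and tln1 at 0.18, 0.18 and 0.19, and for fgf20a phf23a, irf2bp1 and rdh14b at 0.19, 0.20 and 0.20. Small changes lie near many genes, so these 6 names describe only the size of the change.

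**Figure D4:**
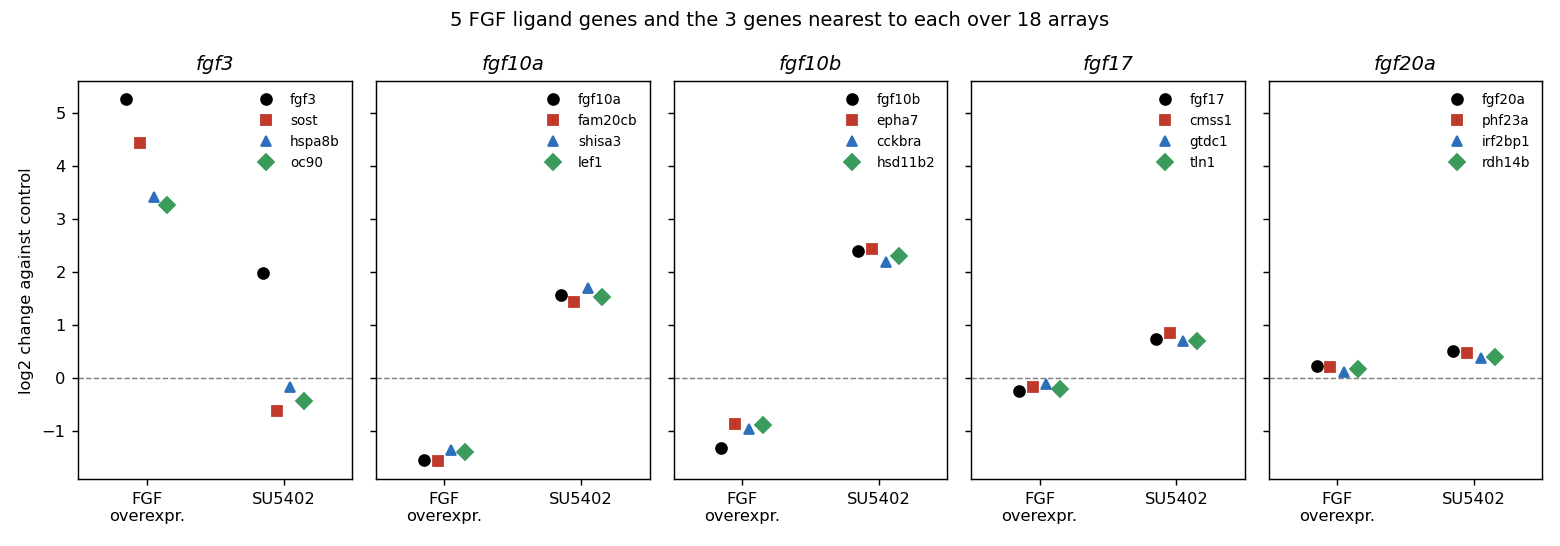
Log2 change against control of the 5 ligand genes that passed against control and of the 3 named genes nearest to each, with FGF overexpression left and SU5402 right in each panel. The near genes were picked for likeness over these same arrays. Those near fgf10a and fgf10b lie below 0 under FGF overexpression and above it under SU5402. Those near fgf3 lie at -0.64 to -0.17 under SU5402, where fgf3 lies at 1.99. They were picked with arrays included on which transgene and native fgf3 RNA cannot be told apart.

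Among 21 other measured FGF family genes, 4 rose and 2 fell under SU5402, with a median log2 change of 0.08, and 1 fell and none rose under FGF overexpression, with a median of -0.03. Of all named genes, 6.57% rose and 8.13% fell under SU5402, and 3.41% rose and 2.48% fell under FGF overexpression. The same shares are the background of the lists that follow. The 1 fall among 21 genes is near them and is no result about the family. At an unadjusted limma p under 0.05 the FGF overexpression counts were 2 lower and 0 higher. The ligand gene fgf6a, whose mouse counterpart is expressed in muscle, ran in the order of fgf10a. It ranged from 5.65 to 6.32 on FGF overexpression arrays, from 7.60 to 8.28 on SU5402 arrays and from 6.69 to 7.27 on control arrays, with no overlap between groups. Its log2 change was -1.08 under FGF overexpression (SE 0.14, limma adjusted p = 0.000105) and 0.89 under SU5402 (SE 0.14, limma adjusted p = 0.000324). None of the 18 skeletal muscle markers passed the limma test in any comparison, and at an unadjusted p under 0.05 there was 1 against control under each treatment, lower in both cases. The median log2 change of these markers was -0.18 under SU5402 and -0.17 under FGF overexpression. These counts come from the fit that leaves shared replicate deviation out. Between arrays of the same replicate number, the mean of the muscle list was below control for every number under both treatments. For number 3 it was 10.49 under FGF overexpression, 10.63 under SU5402 and 11.01 in control. For number 5 the values were 10.98, 10.97 and 11.00 in the same order. The part of muscle cells in the level of fgf6a was not tested. The other rises under SU5402 were those of fgf4, fgf16 (0.57, adjusted p = 0.0236) and fgf20b (0.53, adjusted p = 0.0128), the copy of fgf20a. The falls under SU5402 were those of fgf13a (-0.82, adjusted p = 0.000308) and fgf12b (-0.49, adjusted p = 0.000950), which encode FGF-like proteins that stay inside the cell and bind sodium channels. The genes fgf16 and fgf20b were named after their values were seen, to complete the 4 rises.

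The list of receptor and modulator genes went both ways. Of 19 measured receptor, coreceptor and carrier genes, 3 rose and 3 fell under SU5402 (median log2 change -0.04), and 2 rose and 5 fell under FGF overexpression (median -0.14). The 3 falls under SU5402 were those of receptor genes, fgfr1a, fgfr1b and fgfr2, and the 3 rises those of flrt3, anos1a and anos1b. Under SU5402 fgfr1b changed by -1.105 (log2) and fgfr2 by -0.895. Under FGF overexpression they changed by -0.715 and -0.38, and all of these changes passed. The receptor gene fgfr1a, expressed in the primordium, was at 10.02 to 10.24 on FGF overexpression arrays, 8.39 to 8.71 on SU5402 arrays and 9.52 to 10.08 on control arrays. It fell under SU5402 (log2 change -1.26, limma adjusted p = 1.14e-08) and did not pass under FGF overexpression (0.27, adjusted p = 0.106). The gene anos1b, one of a pair that encode the secreted FGF receptor modulator anosmin, ran in the order of fgf10a, with log2 changes of -1.26 under FGF overexpression and 1.68 under SU5402. Its copy anos1a did so too, with -1.02 under FGF overexpression and 0.62 under SU5402, and all 4 changes passed. The smallest p of this list under SU5402 was that of flrt3, which encodes a membrane protein that binds FGF receptors in the frog, with a log2 change of 2.15 (SE 0.10, limma adjusted p = 1.47e-10), against -0.22 under FGF overexpression, where it did not pass (adjusted p = 0.323).

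Of 17 measured FGF-ERK target and feedback genes 9 rose and none fell under FGF overexpression (median log2 change 0.44), and none rose and 8 fell under SU5402 (median -0.29). At an unadjusted limma p under 0.05 the counts were 12 and 0 under FGF overexpression and 1 and 10 under SU5402. The level of etv4 was 10.82 to 11.13 on FGF overexpression arrays, 5.32 to 6.14 on SU5402 arrays and 8.74 to 9.61 on control arrays, the reverse order of fgf10a, with no overlap. The feedback gene spry4 rose by 1.26 (log2) under FGF overexpression and fell by 0.82 under SU5402. The ERK phosphatase gene dusp6 rose by 1.37 under FGF overexpression and was at 0.03 under SU5402, where it did not pass (adjusted p = 0.916). These values are of the probe set with the higher mean of 2 for dusp6, and the other is not given here.

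Of 22 measured Wnt pathway genes, 11 rose and 6 fell under SU5402 (median log2 change 0.47), and 5 rose and 8 fell under FGF overexpression (median -0.13). Where in the primordium these genes are expressed was not measured, so the counts are not those of leading cells. Beside lef1, the Wnt feedback gene axin2 stood at 8.13 to 8.68 on FGF overexpression arrays, 9.99 to 10.30 on SU5402 arrays and 8.59 to 8.98 on control arrays. Its log2 change was -0.42 under FGF overexpression (limma adjusted p = 0.0104) and 1.28 under SU5402 (limma adjusted p = 1.99e-08). The smallest p of the list under SU5402 were those of notum1a and notum1b, which encode secreted Wnt inhibitors. The level of notum1a changed by -0.90 (log2) under FGF overexpression (limma adjusted p = 0.00086) and 3.54 under SU5402 (limma adjusted p = 1.94e-11). That of notum1b changed by 2.28 under SU5402 (limma adjusted p = 1.94e-11) and was at 0.06 under FGF overexpression, where it did not pass (adjusted p = 0.819). The ligand gene wnt10a had the signs of fgf10b, with -0.90 under FGF overexpression and 2.67 under SU5402. The Wnt modulator gene dkk2 had the reverse signs, with 2.83 under FGF overexpression and -2.81 under SU5402. The list thus held genes in the order of fgf10a and genes in the reverse order, and its counts describe these arrays without setting it apart from other lists.

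**Figure D5:**
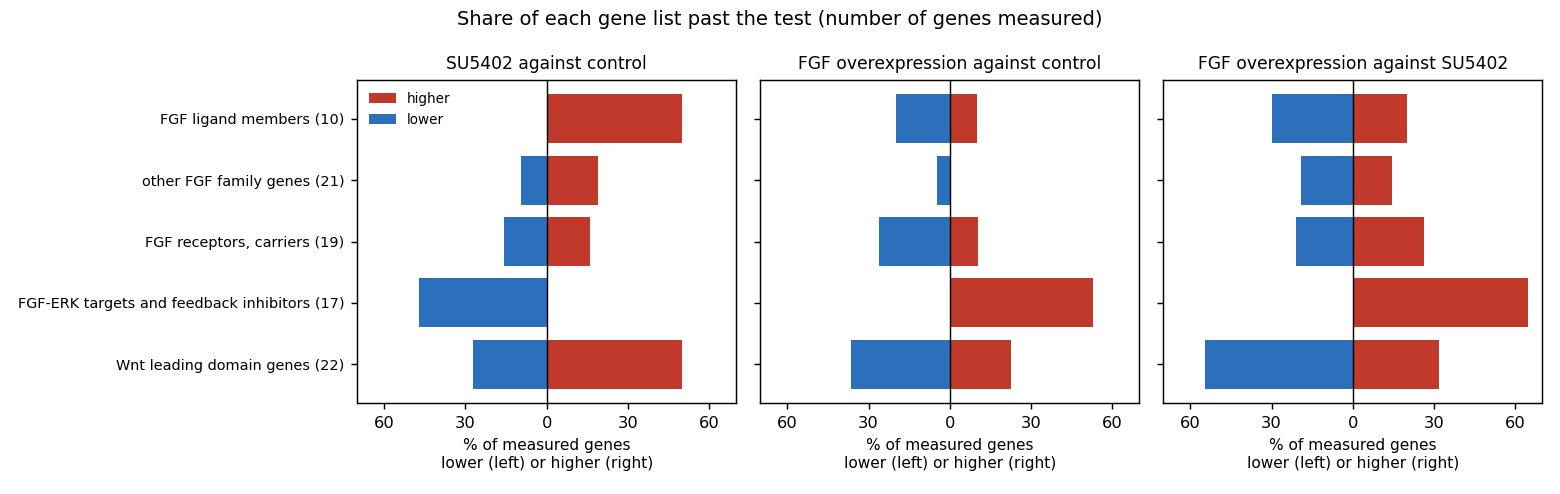
Share of the measured genes of each list that passed the limma test in each comparison, with higher genes to the right and lower genes to the left of 0. Of all named genes, 14.7% passed under SU5402, 5.89% under FGF overexpression and 24.4% between the treatments. The 17 FGF-ERK target genes show 9 rises under FGF overexpression and 8 falls under SU5402. The 10 ligand genes show 5 rises under SU5402, of which that of fgf20a was lost in 9 of 12 alternative fits. Under FGF overexpression the ligand genes show 2 falls and 1 rise, that of fgf3, which the transgene encodes. The list labelled for the Wnt leading domain holds Wnt pathway genes whose place of expression was not measured.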

How the data were processed

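Total RNA of 18 samples was hybridised to 1-colour Affymetrix arrays after biotin labelling, per the labels' protocols. Each probe set has 1 deposited log2 signal per array. The submitters' processing notes name Affymetrix Power Tools and RMA, with no version. The signals were used without further normalization or filter and ran from 1.20 to 13.88. No scan date or batch is given in the sources used here. Groups were taken from the treatment labels, and the titles call the 6 samples of a group biological replicates. All 18 arrays entered 1 model with a mean for each group in limma 3.58.1 under R 4.3.3, and the 3 comparisons were contrasts of it, with a threshold of 0.05 after Benjamini-Hochberg adjustment. SE and 95% intervals come from this fit, and the intervals are not adjusted. Precision is limited by the number of arrays. Symbols came from an array annotation of 2013. A list gene with several probe sets was stood for by the one with the highest mean. Of 4 further lists, genes were eligible to be named if among the 4 smallest p of those that passed in a comparison, with fgfr1a, etv4, dusp6, spry4, lef1 and axin2 in all cases; not every eligible gene is printed. The markers and2, col5a1, ackr3b and prox1a, the receptor gene fgfr2 and the neighbours of fgf3 were named outside this rule, after their values were seen. The ligand genes, lists and tests were chosen with earlier results of these data known. Paralogue tests were added after the values were seen. Alternatives were a fit of the compared arrays alone, a replicate block, a trended and robust variance, array weights, equal array medians, quantile normalization, a filter on dim probe sets and leaving out each replicate number.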

Additional observations from a re-analysis of the deposited data

Results flagged for a closer look

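In 30 groups of 6 arrays, 10 genes in 3 groups each, 3 arrays stood apart from the other 5 by more than Dixon's limit for the gap over the range, which chance does in about 1 group of 20. For fgf10a, control replicate 5 was at 8.80, against 9.23 for the next array, and without replicate 5 of each group the calls of fgf10a were unchanged. For fgf8b, SU5402 replicate 3 was at 4.83, against 5.23 for the next array. For fgf17, SU5402 replicate 4 was at 5.61, against 5.98 for the next array.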

How the results depend on the processing

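Of 30 results, the 3 comparisons of 10 ligand genes, 28 kept their side of the threshold under every alternative run, out of 13, and no called change turned its sign. The exceptions were fgf20a under SU5402 and fgf24 under FGF overexpression. The replicate block was run because the groups share replicate numbers. Same-numbered samples deviated together, with correlations of 0.012 to 0.226 over 18 pairs, 8 of them over 0.1. Of 18 samples, 10 correlated best with their own number, so same-numbered samples shared part of their deviation. The main fit leaves this out, since the labels' protocols name no pairing. With the replicate block 4101 probe sets were higher and 4289 lower under SU5402, against 3526 and 3548 in the main fit. With the replicate block, 2 ligand genes were higher under FGF overexpression in place of 1, since fgf24 passed (limma adjusted p = 0.0457), and fgf20a was lost under SU5402 (limma adjusted p = 0.0693). The count of higher ligand genes under FGF overexpression was also 2 with array weights and with a filter on dim probe sets. The filter kept probe sets whose highest group mean was above 5.93, the median of all values, and removed fgf8a, fgf8b, fgf20a and fgf22. It kept fgf17 only through its SU5402 mean of 5.958, the group where it is called higher. The kept call of fgf17 in that run thus adds no support. Without 1 replicate number at a time that count ranged from 1 to 2, that of higher ligand genes under SU5402 from 4 to 5, that of all higher probe sets under SU5402 from 2307 to 3036, against 3526 with all arrays, and that of all lower probe sets under FGF overexpression from 749 to 1108, against 1345. Fewer arrays were fitted in each of these. The mean over the probe sets of a gene was not run, since each ligand gene has 1. Signals near the low end of the arrays limit what can be said of fgf8a, fgf8b, fgf17, fgf20a and fgf22.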
